A study of Nothobranchius furzeri with 8 samples.

Results

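The nuclear tRNAs that accept glutamate and proline were followed in brains of the turquoise killifish Nothobranchius furzeri, in old fish and in young fish. They were chosen by name, as every nuclear anticodon whose tRNA carries 1 of these 2 amino acids. This gave 5 of the 49 nuclear anticodons, or of 73 anticodons with the mitochondrial ones and the spike-in. They were tRNA-Glu-CTC and tRNA-Glu-TTC for glutamate, and tRNA-Pro-AGG, tRNA-Pro-CGG and tRNA-Pro-TGG for proline. At the level of distinct mature tRNAs they comprised 8 of 66 nuclear entries, Glu-CTC-1, Glu-CTC-2, Glu-CTC-3, Glu-TTC-1, Pro-AGG-1, Pro-CGG-1, Pro-TGG-1 and Pro-TGG-2. None of the 8 was a merged cluster. An aminoacyl-tRNA synthetase joins an amino acid to the 3′ end of its tRNAs, and in animals glutamate and proline are joined by a single fused protein, glutamyl-prolyl-tRNA synthetase (EPRS). This enzyme sits in the cytosolic multi-synthetase complex with the enzymes of several other amino acids. Glutamate is the main excitatory transmitter of the vertebrate brain as well as a building block of protein, and proline is known as an amino acid at which ribosomes elongate slowly. In mitochondria the same amino acids are joined to mitochondrial tRNAs by a separate pair of enzymes. The comparison asks whether the tRNAs of the fused enzyme differ in amount or in charging between old and young brains, and whether the 2 amino acids move together from brain to brain.

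The series held 8 brains, 4 from fish labelled 39 weeks post hatching (old) and 4 from fish labelled 5 weeks post hatching (young), with 2 males and 2 females at each age. Each library came from the brain of 1 fish, the methods name MZM-0410 as the strain unless otherwise stated, and the tRNA names in the tables refer to another strain, GRZ. No treatment, allele or batch is given, so the groups differ by age alone as far as the labels go. RNA was isolated under mild acid, oxidised and carried through β-elimination, which takes the last base from tRNAs without an amino acid, so that a read ending in CCA came from a charged tRNA and a read ending in CC from an uncharged one.

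The libraries held 717858 to 3112101 reads, of which 66987 to 292093 belonged to glutamate and proline tRNAs, 9.64% to 11.1% of the nuclear tRNA reads of a brain. Across all nuclear tRNAs the charged share ran from 43.7% to 63.8% in old brains and from 60.0% to 70.1% in young brains. The old female 1 brain was at the low end and the old female 2 brain at the high end of the old group. Reads that end in a single C, which the charged share leaves out, made up 6.71% to 24.6% of nuclear ends in old brains and 4.87% to 9.20% in young brains, with old female 1 again at the extreme. The synthetic bacterial tRNA-Lys spike-in was added with 3 parts CCA to 1 part CC. CCA reads made up 77.6% to 80.3% of its CCA plus CC reads in old libraries and 76.8% to 77.6% in young libraries. Single-C ends made up 1.55% to 1.95% of spike-in ends in old libraries, with 1.75% in old female 1, and 1.57% to 1.87% in young libraries. The methods name the spike-in after oxidation and β-elimination, so its ends give no check on RNA handling or on those steps.

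Most of the glutamate and proline tRNA pool was glutamate tRNA. Glutamate tRNAs made up 7.72% ± 0.435 of nuclear reads in old brains and 7.59% ± 0.250 in young brains (SD, n = 4 each), and the exact permutation test gave p = 0.686. Proline tRNAs made up 2.65% ± 0.167 in old brains and 2.47% ± 0.146 in young brains (SD, n = 4 each, exact permutation p = 0.229). The groups overlapped in both totals and neither difference passed the test. These are shares of a bulk library, in which fewer cells of a type and less tRNA per cell cannot be told apart.

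The gene sets behind the 5 anticodons were of unlike size and unlike yield. The reference used for the tables listed 7 genes for Glu-CTC, 5 for Glu-TTC, 7 for Pro-AGG, 2 for Pro-CGG and 4 for Pro-TGG, of 289 nuclear tRNA genes. Per gene copy, Glu-CTC gave 0.675% and Glu-TTC 0.586% of nuclear reads on average over the 8 brains, ranks 5 and 8 of 49 anticodons from the top. The 3 proline anticodons gave less per gene copy, 0.230% for Pro-TGG, 0.195% for Pro-AGG and 0.135% for Pro-CGG, against a median of 0.309% over the 49 anticodons. In the RefSeq annotation of assembly NfurGRZ-RIMD1, another assembly that was used only for names and gene order, far more loci carried these names. There were 183 and 108 for the CUC and UUC anticodons of glutamate and 108, 37 and 65 for the AGG, CGG and UGG anticodons of proline. The yields and ranks per gene copy therefore hold only for the gene counts of the first reference. In that annotation 174 of 291 glutamate tRNA genes lay next to another glutamate tRNA gene and 201 of 211 proline tRNA genes next to another proline tRNA gene. Only 4 of each lay next to a gene of the other amino acid. The gene for the fused enzyme, eprs1, was present as 1 gene.

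tRNA-Glu-CTC, which reads the GAG codon, was the most abundant of the 5. It made up 4.56%, 4.19%, 4.82% and 4.84% of nuclear reads in old male 1, old male 2, old female 1 and old female 2, against 4.72%, 4.87%, 4.89% and 4.87% in young male 1, young male 2, young female 1 and young female 2. The old males were lower than every young brain and the old females lay within the young range. The fitted difference was −0.07 ± 0.05 on the log2 scale (SE), with an adjusted p of 0.409 in edgeR's quasi-likelihood test over 47 nuclear anticodons.

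tRNA-Glu-TTC reads the GAA codon and carries a modified, thiolated wobble uridine in yeast and mammals. Its share was 2.89%, 3.1%, 3.44% and 3.01% in the old brains, in the same order, against 2.56%, 3.0%, 2.64% and 2.80% in the young brains. Of the 4 old brains 3 lay above all young brains and old male 1 lay within the young range. The fitted difference was 0.18 ± 0.07 on the log2 scale (SE), with an unadjusted p of 0.0270 and an adjusted p of 0.153 in edgeR.

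tRNA-Pro-TGG, the proline tRNA for the CCA codon, was the member whose age groups did not overlap in relative abundance. It stood at 1.02%, 0.960%, 1.03% and 0.922% of nuclear reads in the old brains, against 0.819%, 0.821%, 0.897% and 0.905% in the young brains. Every old brain was above every young brain, and old female 2 was the old brain closest to the young ones. Of the 47 anticodons tested, 12.8% had all old brains above all young brains. The fitted difference was 0.19 ± 0.07 on the log2 scale (SE), with an unadjusted p of 0.0134 and an adjusted p of 0.105 in edgeR. It passed with DESeq2 (adjusted p = 0.0278, where 12.8% of the 47 anticodons passed), and in edgeR without old female 2 (adjusted p = 0.0330, where 17.0% passed). In the other edgeR settings with all brains, its adjusted p lay between 0.102 and 0.174. With any other single brain left out it did not pass, and the adjusted p in edgeR reached 0.297 without young male 1.

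The other proline anticodons had estimates closer to 0. tRNA-Pro-AGG, whose first anticodon base is read as inosine in the mature tRNA and serves the CCU and CCC codons, averaged 1.40% ± 0.139 in old brains and 1.33% ± 0.088 in young brains (SD, n = 4 each). The fitted log2 difference was 0.08 ± 0.08 (SE, adjusted p = 0.534 in edgeR). tRNA-Pro-CGG, the rarest of the 5 and the reader of the CCG codon, averaged 0.262% ± 0.0226 in old brains and 0.280% ± 0.0163 in young brains (SD, n = 4 each). Its fitted log2 difference was −0.10 ± 0.10 (SE, adjusted p = 0.534 in edgeR). In all, 0 of the 5 members passed an adjusted p of 0.05 for abundance, where 6.38% of all 47 anticodons did. An unadjusted p below 0.05 was found for 2 of the 5, both higher in old brains, where 19.1% of all had one and 10.6% were higher in old brains. The median log2 difference was 0.08 over the 5 members, which is the value of Pro-AGG, and 0.01 over the 47 anticodons. Without old female 1 the median over the members, again that of Pro-AGG, was 0.00 (adjusted p = 0.997 in edgeR).

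**Figure D1:**
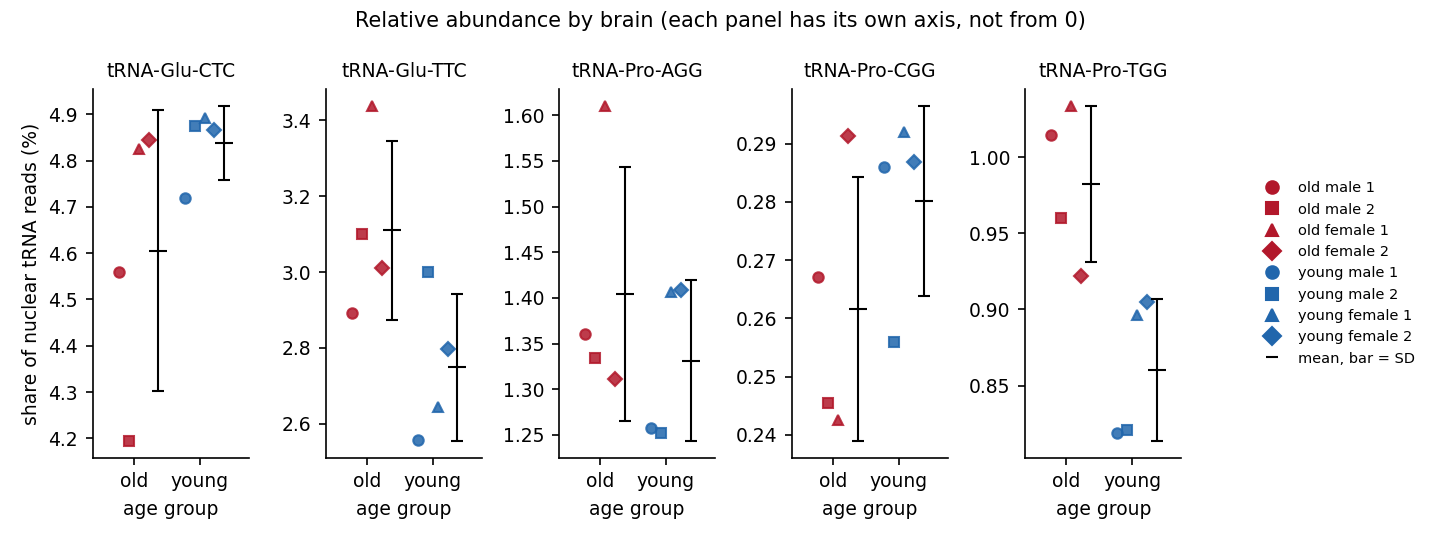
Relative abundance of the 5 anticodons, as the percentage of nuclear tRNA reads on the vertical axis of each panel (axes differ and do not start at 0), with old brains in red on the left, young brains in blue on the right, a symbol per brain and black bars for the mean and SD. The Pro-TGG groups do not overlap, with old brains between 0.922% and 1.03% and young brains between 0.819% and 0.905%, while the other 4 anticodons overlap.

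Within each of the amino acids, the anticodon that begins with T took a larger part of the reads in every old brain than in any young brain. This measure, the reads of an anticodon as a percentage of all nuclear reads of its amino acid, does not move when other amino acids move, and it was added after the abundances had been seen. Glu-TTC took 38.8%, 42.5%, 41.6% and 38.3% of glutamate tRNA reads in old male 1, old male 2, old female 1 and old female 2, against 35.1%, 38.1%, 35.1% and 36.5% in the young brains in the same order. Every old brain was above every young brain, by a narrow gap between old female 2 and young male 2. With only 2 anticodons for glutamate, the share of Glu-CTC is the remainder, 59.7% ± 2.05 in old brains and 63.8% ± 1.42 in young brains (SD, n = 4 each), with every old brain below every young brain as for 10.3% of the 39 anticodons compared in this way.

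Pro-TGG took 38.4%, 37.8%, 35.8% and 36.5% of proline tRNA reads in the old brains, against 34.7%, 35.2%, 34.6% and 34.8% in the young brains. The groups again did not overlap, and the 4 young brains lay within less than 1 percentage point of each other. Pro-AGG averaged 52.9% ± 1.95 in old brains and 53.8% ± 0.449 in young brains (SD, n = 4 each). Pro-CGG averaged 9.93% ± 1.29 in old brains and 11.3% ± 0.518 in young brains (SD, n = 4 each). Both overlapped between the ages. The differences were 4.11 percentage points for Glu-TTC and 2.32 for Pro-TGG, each with an exact permutation p of 0.0286, the smallest that 70 relabellings of 8 brains can give. The adjusted p over the 39 anticodons of the 13 amino acids with several anticodons was 0.124 for both, so neither passed. In these counts the initiator and elongator tRNAs of methionine, both with the anticodon CAT, stand as separate anticodons. Of those 39 anticodons 12.8% had all old brains above all young brains, 5 anticodons, and besides Glu-TTC and Pro-TGG these were Ile-TAT, Leu-CAA and Lys-TTT.

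**Figure D2:**
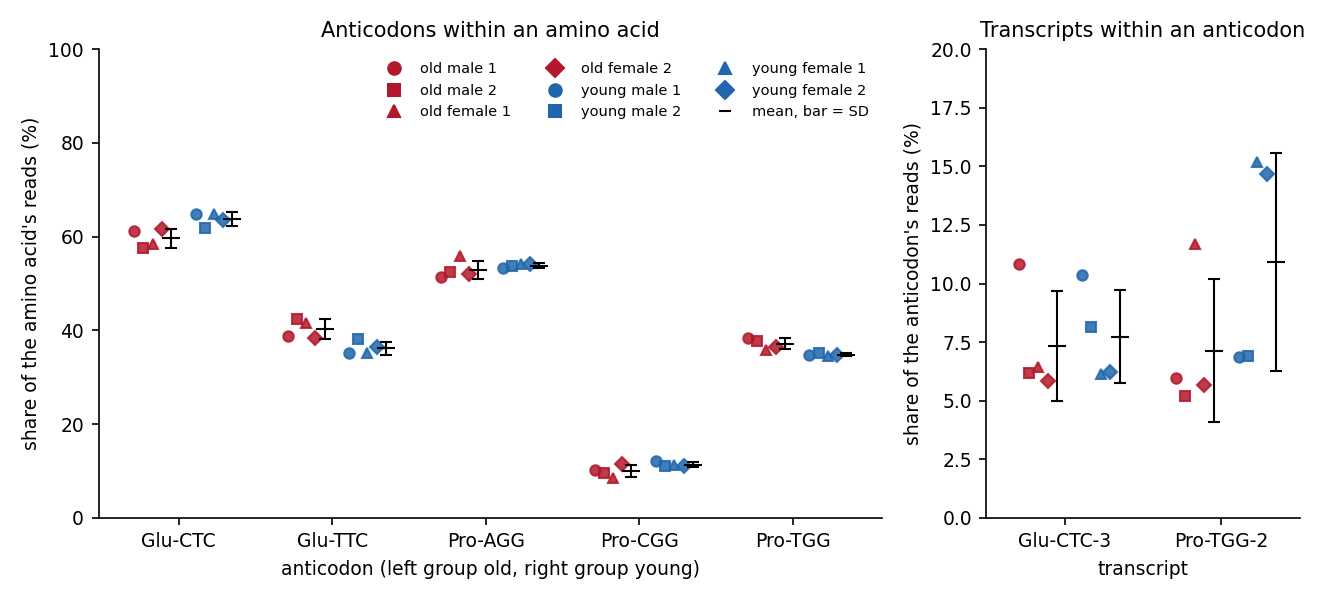
Left, the percentage of an amino acid's nuclear reads taken by each of its anticodons, and right, the percentage of an anticodon's reads taken by the minor transcripts Glu-CTC-3 and Pro-TGG-2, with old brains in red left of young brains in blue, a symbol per brain and black bars for the mean and SD. Glu-TTC and Pro-TGG do not overlap between the ages, and for Pro-TGG-2 the young female brains reach 15.2% and 14.7%, against 6.87% and 6.91% in the young male brains.

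In every brain glutamate tRNAs were charged less than proline tRNAs. The charged share, CCA reads as a percentage of CCA plus CC reads, was lower for each glutamate anticodon than for each proline anticodon in 8 of 8 brains, by 13.5 to 17.2 percentage points on average. Glu-CTC was below Glu-TTC by 2.79 ± 1.75 points (SD over 8 brains) and Pro-TGG was below Pro-AGG by 0.912 ± 0.268 points (SD over 8 brains), again in 8 of 8 brains. Those 8 of the 10 pairs had an exact sign-flip p of 0.0078, the smallest that 8 brains can give, and an adjusted p of 0.00977 over the 10 pairs. The other two pairs were not told apart by the same exact test. Pro-AGG minus Pro-CGG averaged 0.245 ± 1.76 points (SD, adjusted p = 0.695) and Pro-CGG minus Pro-TGG averaged 0.666 ± 1.87 points (SD, adjusted p = 0.425), each above 0 in 5 of 8 brains. Which pairs within an amino acid passed depended on the denominator. With C and Absent ends counted as well, Glu-CTC minus Glu-TTC averaged −0.0498 ± 1.02 points (SD over 8 brains, exact sign-flip p = 0.938), so these were no longer told apart. Pro-CGG minus Pro-TGG then averaged 3.34 ± 3.46 points (SD), above 0 in 8 of 8 brains (exact sign-flip p = 0.0078, adjusted p = 0.00977), and the other 7 pairs that had passed still did. Among the 21 amino acids, counted with selenocysteine, glutamate had the rank 20 from the top in charged share at both ages, while proline had the rank 5 in old brains and the rank 7 in young brains.

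Charging of both amino acids was lower in 3 of the 4 old brains than in any young brain. Glutamate tRNAs were 39.9%, 44.7%, 32.3% and 56.5% charged in old male 1, old male 2, old female 1 and old female 2, against 60.2%, 51.1%, 57.5% and 50.0% in young male 1, young male 2, young female 1 and young female 2. The old female 2 brain lay within the young range, and old female 1 was the lowest of all. The means were 43.4% ± 10.2 in old brains and 54.7% ± 4.90 in young brains (SD, n = 4 each), with a difference of −11.3 percentage points, an exact permutation p of 0.114 and an adjusted p of 0.171 over 21 amino acids.

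Proline tRNAs were 60.2%, 60.5%, 49.0% and 71.4% charged in the old brains, against 71.9%, 67.5%, 71.1% and 67.0% in the young brains. The pattern over brains was that of glutamate, with old female 1 lowest and old female 2 among the young brains. The difference of the means was −9.08 percentage points (exact permutation p = 0.114, n = 4 each). Without old female 2 the difference was −15.7 points for glutamate and −12.8 points for proline, each with an exact permutation p of 0.0286, the smallest that 35 relabellings can give. That p was set in advance, because the remaining old brains lay below every young brain. With each brain left out in turn, the exact permutation p ran from 0.0286 to 0.229 for glutamate and from 0.0286 to 0.257 for proline. For each amino acid it was below 0.05 in 1 of the 8 cases. The reads behind a share put it within 0.780 percentage points for an amino acid in any brain (half-width of the 95% Wilson interval, counting error only), so the distances between brains are far wider than the counting error.

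**Figure D3:**
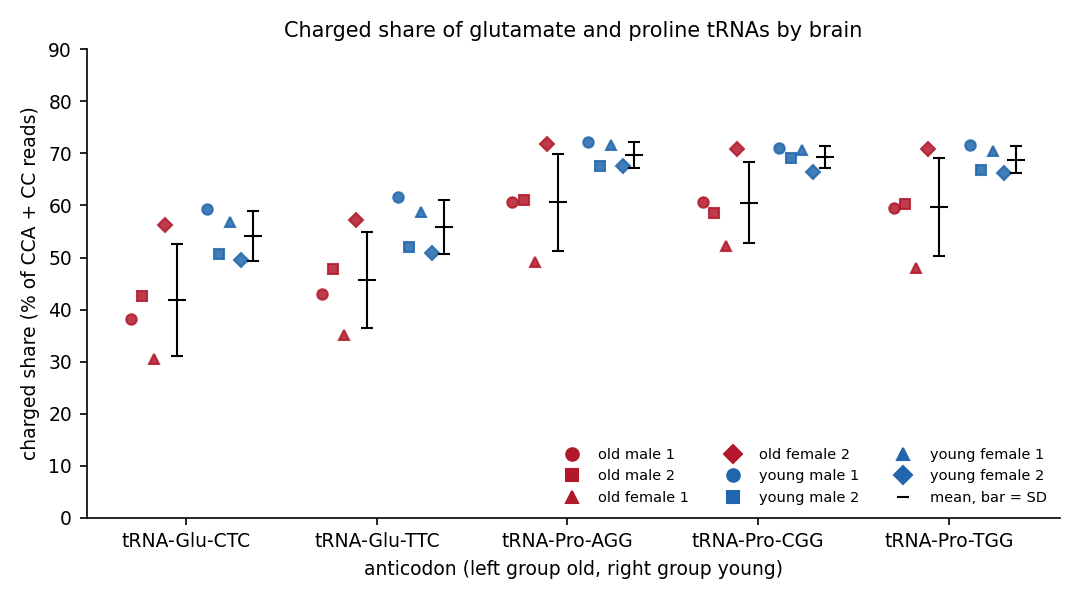
Charged share of the 5 anticodons, as the percentage of CCA plus CC reads that end in CCA on the vertical axis, with old brains in red left of young brains in blue, a symbol per brain and black bars for the mean and SD. In each anticodon 3 old brains lie below all young brains and old female 2 (red diamond) lies among them, and the glutamate anticodons lie below the proline anticodons throughout.

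In the fit of CCA against CC reads per anticodon, all 5 members were estimated lower in old brains and 0 of the 5 passed an adjusted p of 0.05, where 2.13% of the 47 anticodons passed. The log2 odds of charging, old over young, were estimated at −0.73 for Glu-CTC (SE 0.36, unadjusted p = 0.0430, adjusted p = 0.123) and at −0.59 for Glu-TTC (SE 0.37, adjusted p = 0.166) in edgeR. The proline anticodons lay close to each other, at −0.56 for Pro-AGG (SE 0.39), −0.55 for Pro-CGG (SE 0.30) and −0.56 for Pro-TGG (SE 0.38). Their adjusted p in edgeR were 0.184, 0.123 and 0.180. All 47 anticodons were estimated lower in old brains, with a median of −0.69, against −0.56 over the 5 members. The 19 anticodons of the other amino acids served by the multi-synthetase complex had a median of −0.73 with 0 passing. The 23 anticodons of enzymes outside it had a median of −0.66 with 1 passing. An unadjusted p below 0.05 was found for 1 of the 5 members and for 38.3% of the 47 anticodons. Without old female 2, all 5 members passed, with adjusted p between 0.00599 and 0.0184 in edgeR, where 80.9% of the 47 anticodons passed. This fit shares its variance estimate over anticodons whose charging moved together from brain to brain, so these p-values can be too small. The exact permutation test without old female 2 has 35 relabellings and allows no p below 0.0286.

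The 8 transcripts had estimates close to those of their anticodons. Their estimates ran from −0.77 for Glu-CTC-3 to −0.55 for Pro-CGG-1 on the log2 scale. Of the 8, 0 passed where 1.52% of 66 nuclear transcripts did, and without old female 2 all 8 passed in edgeR, where 78.8% of the 66 did. With any other single brain left out, none of the 8 passed. The limit given above for the anticodon p-values holds for the transcripts as well. The minor transcripts Glu-CTC-3 and Pro-TGG-2 were charged less than Glu-CTC-1 and Pro-TGG-1, the major ones of their anticodons, in 8 of 8 brains. Glu-CTC-2, between Glu-CTC-1 and Glu-CTC-3 in amount, was not told apart from Glu-CTC-1. Glu-CTC-2 minus Glu-CTC-1 averaged 0.488 ± 0.842 points (SD), below 0 in 3 of 8 brains (exact sign-flip p = 0.164, adjusted p = 0.164). Glu-CTC-3 minus Glu-CTC-2 averaged −5.14 ± 1.34 points (SD), below 0 in 8 of 8 brains. Glu-CTC-3 minus Glu-CTC-1 averaged −4.65 ± 1.48 percentage points and Pro-TGG-2 minus Pro-TGG-1 averaged −8.17 ± 3.7 points (SD over 8 brains), each with an exact sign-flip p of 0.0078 and an adjusted p of 0.0104 over 4 pairs, a comparison added after the values had been seen. Glu-CTC-3 was charged to 37.3% ± 10.7 in old brains and 49.7% ± 5.38 in young brains, while Glu-CTC-1 reached 42.1% ± 10.9 in old brains and 54.2% ± 5.01 in young brains (SD, n = 4 each). Pro-TGG-2 was charged to 51.4% ± 6.07 in old brains and 62.1% ± 5.79 in young brains, while Pro-TGG-1 reached 60.2% ± 9.51 in old brains and 69.6% ± 2.32 in young brains (SD, n = 4 each).

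Among the members the minor transcripts also varied most in amount. Pro-TGG-2 made up 5.97%, 5.20%, 11.7% and 5.66% of Pro-TGG reads in old male 1, old male 2, old female 1 and old female 2, against 6.87%, 6.91%, 15.2% and 14.7% in the young brains in the same order. Old female 1 and both young females were high, and old female 2 was as low as the males, so the ages overlapped. The difference between the ages was −3.78 percentage points (exact permutation p = 0.171, n = 4 each, adjusted p = 0.286). The mean was 11.8% over females and 6.24% over males, which was not tested. The ratio of the highest brain to the lowest, 2.92, was the largest among 37 nuclear transcripts that share an anticodon, whose median ratio was 1.15. Glu-CTC-3 made up 10.9% of Glu-CTC reads in old male 1 and 10.4% in young male 1, and 5.84% to 8.14% in the other 6 brains (exact permutation p = 0.857 between ages, n = 4 each).

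Charging of glutamate and proline tRNAs varied together from brain to brain. On the log2 odds scale, log2 of CCA over CC reads, glutamate stood at −0.59, −0.31, −1.07 and 0.38 in the old brains, against 0.59, 0.07, 0.44 and 0.00 in the young brains. Proline stood at 0.60, 0.61, −0.06 and 1.32 in the old brains, against 1.35, 1.05, 1.3 and 1.02 in the young brains. Over the 8 brains Pearson's r was 0.983 (permutation p = 4.96e-05 over all orders of the brains) and Spearman's rho was 0.976 (permutation p = 0.000397). Without old male 1 and old female 1, the brains farthest from the median of glutamate, r was 0.969 (permutation p = 0.00278). With the mean of each age subtracted r was 0.972 and rho was 1 (permutation p = 2.48e-05, the smallest possible, and 4.96e-05). These permutations ran over all orders of the brains. Once age means are subtracted only orders within an age are comparable, so these p-values are too small.

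Most amino acids varied together in this way. Over the 210 pairs of amino acids the median r was 0.912 (range 0.364 to 0.997), and 27 pairs had a higher r than glutamate and proline. These are descriptions over the same 8 libraries. When the median of the other amino acids in each brain was subtracted, r between glutamate and proline was 0.575 (permutation p = 0.135) and rho was 0.286 (permutation p = 0.501). Without old female 2 and young male 2 r was −0.17 (permutation p = 0.676). The median-subtracted relation did not pass the test, and its sign turned without those 2 brains. With CCA set against CC, C and Absent ends together, the median-subtracted r was 0.0978 and rho was −0.07 (permutation p of r 0.814). On the same ends without the subtraction, r was 0.993 and rho was 0.976 (permutation p of r 4.96e-05). Of the 8 correlations computed between the 2 amino acids, the first had an adjusted p of 9.92e-05 and the median-subtracted one 0.180.

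**Figure D4:**
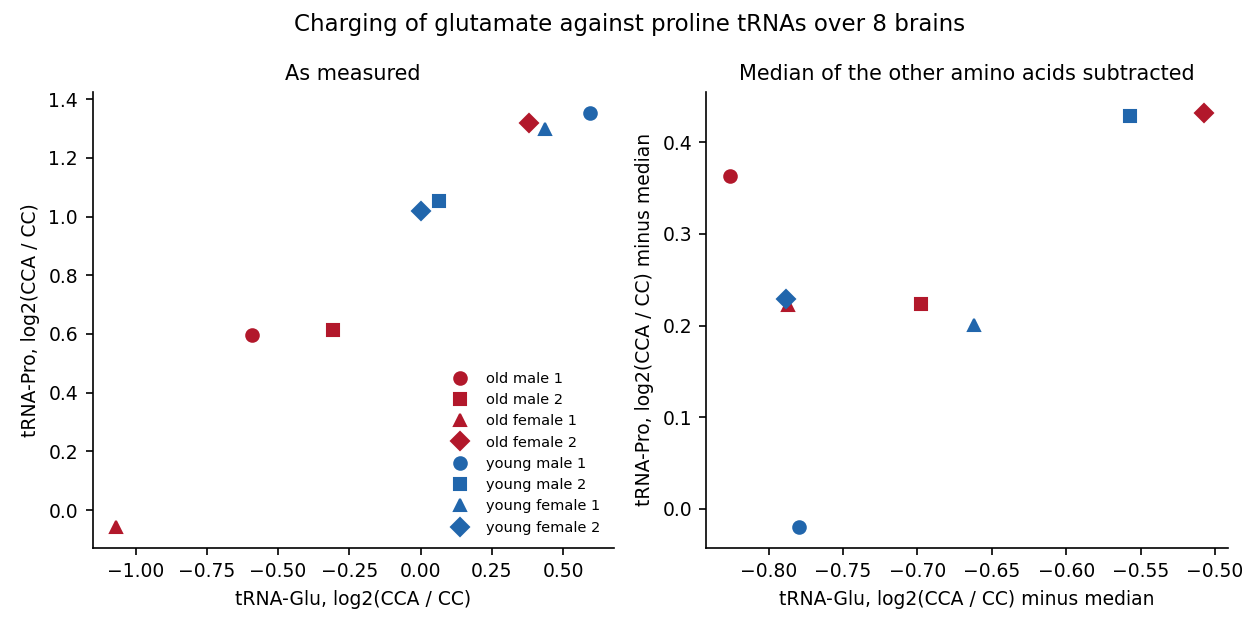
Log2 of CCA over CC reads of proline tRNAs (vertical axis) against glutamate tRNAs (horizontal axis) in 8 brains, old in red and young in blue with a symbol per brain, as measured (left, r = 0.983) and after the median of the other amino acids in each brain was subtracted (right, r = 0.575). The points lie along a line on the left and are scattered on the right, where old female 2 and young male 2 stand at the upper right.

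With the common shift taken out, neither amino acid was most like the other. The 3 amino acids whose median-subtracted log2 odds followed glutamate most closely over the 8 brains were leucine (r = 0.844), arginine (r = 0.791) and isoleucine (r = 0.755), and proline was at rank 10 of 20 with r = 0.546, here with the median taken over all amino acids. For proline they were methionine (r = 0.906), histidine (r = 0.803) and valine (r = 0.783), with glutamate at rank 5 of 20. Relative to the median of the other amino acids, glutamate lay at −0.70 ± 0.14 in old brains and −0.70 ± 0.11 in young brains on the log2 scale (SD, n = 4 each, exact permutation p = 0.971). Proline lay at 0.31 ± 0.10 in old brains and 0.21 ± 0.18 in young brains (SD, n = 4 each, exact permutation p = 0.429).

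The distance between the 2 amino acids within a brain did not pass a test of change with age. Proline minus glutamate was 1.19, 0.92, 1.01 and 0.94 on the log2 odds scale in the old brains, against 0.76, 0.99, 0.86 and 1.02 in the young brains. Old male 1 had the widest distance and young male 1 the narrowest, and the groups overlapped. The means were 1.01 ± 0.12 in old brains and 0.91 ± 0.12 in young brains (SD, n = 4 each), a difference of 0.11 (exact permutation p = 0.286, adjusted p = 0.714 over 5 such differences), and shifts from −0.10 to 0.43 were not rejected by the same test. It fell to 0.05 without old male 1 and to 0.06 without young male 1, and with CCA set against CC, C and Absent ends together it was 0.23 (exact permutation p = 0.143).

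Among the isoacceptors, Glu-CTC minus Glu-TTC was −0.29, −0.30, −0.30 and −0.06 in the old brains, against −0.14, −0.07, −0.11 and −0.08 in the young brains. In 3 old brains Glu-CTC was further below Glu-TTC than in any young brain, and old female 2 was the closest of all 8. The difference was −0.14 (exact permutation p = 0.143, adjusted p = 0.714, not rejected from −0.23 to 0.08), and without old female 2 it was −0.20 (exact permutation p = 0.0286). That last p was set in advance, because the remaining old brains lay below every young brain. With each brain left out in turn, the exact permutation p ran from 0.0286 to 0.229 and was below 0.05 in 1 case. With CCA set against CC, C and Absent ends together the difference was −0.05 (exact permutation p = 0.257). The 3 differences among proline anticodons differed between the ages by −0.02 to 0.02 (exact permutation test, adjusted p = 0.971 for each). Shifts from −0.26 to 0.29 were not rejected for Pro-CGG minus Pro-TGG, and shifts from −0.04 to 0.03 for Pro-AGG minus Pro-TGG.

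The mitochondrial tRNAs of the same amino acids did not have lower mean charging in old brains as a share of CCA plus CC reads. The mitochondrial glutamate tRNA was charged to 88.9% ± 3.16 in old brains and 86.5% ± 1.23 in young brains (SD, n = 4 each, exact permutation p = 0.229). The mitochondrial proline tRNA was charged to 72.2% ± 3.36 in old brains and 70.1% ± 4.95 in young brains (SD, n = 4 each, exact permutation p = 0.514). With all 4 kinds of end in the denominator the direction turned for glutamate, at 69.6% ± 8.25 in old brains and 72.8% ± 1.02 in young brains (SD, n = 4 each, exact permutation p = 0.486), with 3 of the 4 old brains below all young brains. For proline it stayed, at 66.4% ± 3.21 in old brains and 65.1% ± 5.58 in young brains (SD, n = 4 each). Nuclear minus mitochondrial log2 odds of glutamate were −3.59, −2.75, −4.33 and −3.08 in the old brains, against −2.19, −2.40, −2.34 and −2.69 in the young brains. The groups did not overlap, with every old brain lower, as for 40.0% of the 20 amino acids with both kinds of tRNA, and all 20 had a lower mean in old brains. For glutamate the difference was −1.03 (exact permutation p = 0.0286, adjusted p = 0.0571 over glutamate and proline), and for proline it was −0.70 (exact permutation p = 0.0571), both added after the charged shares had been seen. With CCA set against CC, C and Absent ends together, the glutamate difference was −0.73 (exact permutation p = 0.0857).

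Glutamate and proline tRNAs stood far apart in the ends that the charged share leaves out. Reads ending in a single C made up 23.3%, 22.7%, 38.7% and 12.7% of scored 3′ ends of glutamate tRNAs in the old brains, against 9.72%, 16.8%, 12.2% and 18.1% in the young brains. The mean was 24.3% ± 10.7 in old brains and 14.2% ± 3.91 in young brains (SD, n = 4 each, exact permutation p = 0.0857, adjusted p = 0.15 over 21 amino acids). These means were the highest of the 21 amino acids at both ages. In proline tRNAs, which had rank 20 in old and 18 in young brains, such reads made up 5.42%, 4.19%, 7.74% and 2.99% in the old brains, against 1.96%, 4.39%, 2.46% and 4.37% in the young brains (exact permutation p = 0.2). Both amino acids were highest in old female 1, and old female 2 lay within the young range.

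Within each brain glutamate exceeded proline by 15.1 percentage points on average, in 8 of 8 brains (exact sign-flip p = 0.0078, the smallest possible). Glutamate tRNAs gave 13.1% to 15.4% of all nuclear C ends but 7.29% to 8.28% of all nuclear ends, and proline tRNAs gave 0.883% to 1.23% of the C ends and 2.33% to 2.89% of all ends. Set against all other nuclear tRNAs of the same brain, the share of C ends of glutamate tRNAs was 1.98, 2.02, 1.66 and 2.05 times theirs in the old brains, against 2.17, 2.13, 2.07 and 2.14 times in the young brains. On this ratio every old brain was below every young brain, as for 9.52% of the 21 amino acids, while in percentage points the old mean was higher. The difference of the ratios was −0.20 (exact permutation p = 0.0286, adjusted p = 0.114 over 4 ratios). A ratio of percentages has less room as the percentages rise. C ends reached 24.6% of all nuclear ends in old brains and 9.20% in young brains. The part of this level in the lower ratios was not tested.

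Reads with no base of the tail, called Absent in the files, went the other way between the amino acids. They made up 7.06% ± 5.11 of proline ends in old brains and 3.15% ± 0.965 in young brains (SD, n = 4 each, exact permutation p = 0.0857), with old female 1 at 14.5%. They made up 3.16% ± 1.89 of glutamate ends in old brains and 1.34% ± 0.186 in young brains (SD, n = 4 each, exact permutation p = 0.114). Proline exceeded glutamate in Absent ends by 2.86 percentage points on average over the 8 brains (exact sign-flip p = 0.0078). With all 4 kinds of end in the denominator, CCA reads made up 32.3% ± 12.7 of glutamate ends in old brains and 46.4% ± 6.38 in young brains, the lowest of the 21 amino acids at both ages. They made up 53.4% ± 11.9 of proline ends in old brains and 64.9% ± 3.85 in young brains (SD, n = 4 each). Old female 1, with the most C and Absent ends, had the lowest charged share of both amino acids, and old female 2, with the fewest among old brains, had the highest of the old group. The part of these ends in the charged shares was not tested.

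**Figure D5:**
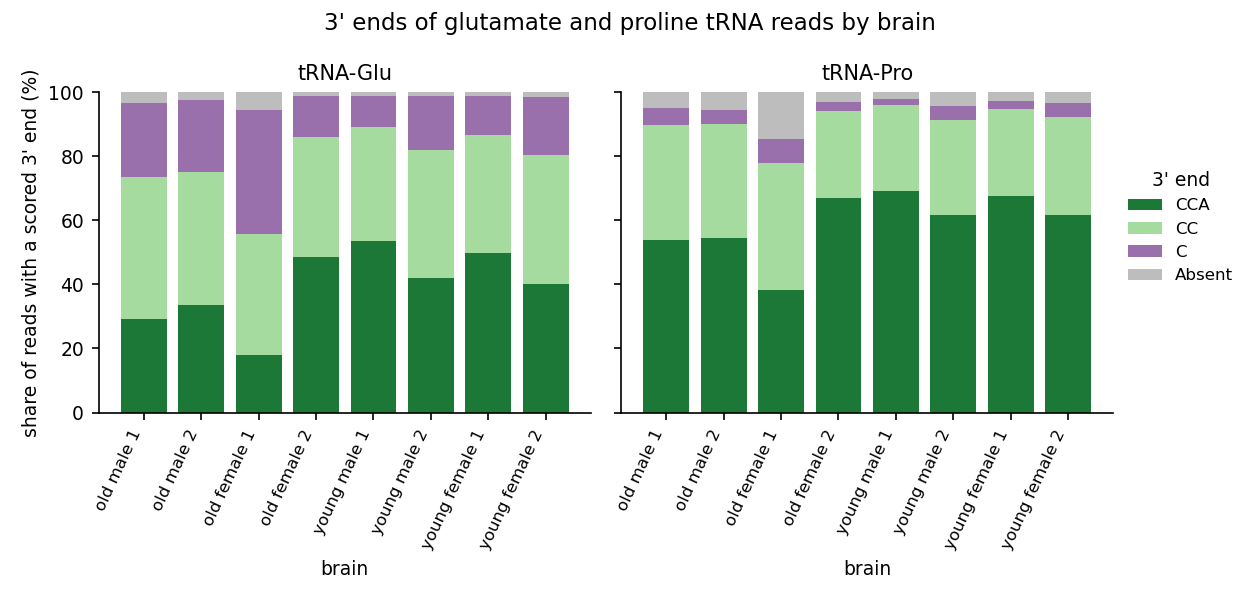
The 4 kinds of 3′ end (CCA, CC, C and Absent) as stacked percentages of the scored reads of glutamate tRNAs (left) and proline tRNAs (right), with old brains left of young brains on the horizontal axis. The single-C part is widest for glutamate in old female 1, 38.7%, and the Absent part is widest for proline in the same brain, 14.5%.

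Male and female fish were not told apart in the size of the age differences. The charged share of glutamate tRNAs differed by −9.34 percentage points between old and young females and by −13.4 points between old and young males, and that of proline tRNAs by −8.83 points in females and −9.32 points in males. The exact permutation p of the interaction of age and sex was 0.833 for glutamate and 0.944 for proline, in a design of 2 brains a group where 36 relabellings allow no p below 0.0556.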

How the data were processed

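Brain tRNA libraries of 8 fish were analysed, 4 per age, grouped by age and sex as labelled. Per the labels and methods, reads were trimmed with cutadapt (version 3.5) and aligned and counted by the authors with the mim-tRNAseq package, allowing misincorporation at modified bases; the deposited values are raw read counts per anticodon, and raw counts of 3′ ends (CCA, CC, C, Absent) per transcript or cluster, neither normalised. The identity threshold for clusters is not given alike in the methods and the table header. The counts are of reads, not of molecules, so intervals cover counting error only. No 2 libraries were duplicates (chi-square per degree of freedom 54.8 to 612 within an age).

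For abundance, edgeR version 4.0.16 (TMM, quasi-likelihood) was run on those nuclear anticodons that reached 10 counts in 4 or more brains, and for charging on CCA and CC counts with an effect per brain, end, and end by age, for entries with at least 100 such reads in every brain, with Benjamini-Hochberg adjustment over all and a threshold of 0.05. Shares were compared by two-sided exact permutation tests, pairs within brains by exact sign flips, and log2 odds used a pseudocount of 0.5. Transcript shares and pairs, glutamate minus proline ends, shares within an amino acid and nuclear minus mitochondrial differences were added after seeing the data. R 4.3.3, limma 3.58.1, DESeq2 1.42.0 and scipy 1.17.1 were used. The SE printed with an edgeR estimate was calculated back from its test, as the absolute estimate over the square root of the F statistic. In data simulated on these counts, with 20 sets, edgeR recovered changed anticodons in both tests. The planted changes were larger than those estimated for any member, and the noise was drawn independently for each anticodon. Power and false calls at the sizes seen here, with shifts shared by all tRNAs of a brain, were therefore not measured. Alternatives were other normalisations and tools, filters, pseudocounts, denominators, each brain left out in turn and a replicate block. All member anticodons and transcripts were named, and of other amino acids the 3 most correlated with each, the ends of ranges, and, outside that rule, 3 anticodons named after their values were seen. The members and lists were chosen with earlier results of these data known.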

Additional observations from a re-analysis of the deposited data

Results flagged for a closer look

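In 114 groups of 4 brains (a member's abundance, charged share, C ends, Absent ends or share in its anticodon, at 1 age), 8 had a brain far from the other 3, where chance gives about 1 in 20. That number is near the chance rate, and the groups are not independent of each other. The first of the 8 flagged groups concerned relative abundance. Old female 1 had 1.61% of nuclear reads in Pro-AGG, and the next old brain 1.36%. Young male 1 had 4.72% in Glu-CTC, and the next young brain 4.87%. Young male 2, the library with the fewest reads, had 0.256% in Pro-CGG, and the next young brain 0.286%.

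Absent ends of Pro-CGG were 2.87% in young male 2 and 1.80% in the next young brain, and since Pro-CGG-1 is the sole transcript of this anticodon it carries the same value, 2.87%. Among the transcripts, Glu-CTC-3 had 10.9% of Glu-CTC reads in old male 1 and 6.42% in the next old brain. Old female 1 had 11.7% of Pro-TGG reads in Pro-TGG-2, against 5.97% in the next old brain, and the remainder, 88.3%, in Pro-TGG-1, against 94.0%. These are 1 measurement seen from both sides.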

How the results depend on the processing

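Leaving out each brain in turn moved the old minus young difference of the charged share between −15.7 and −7.66 points for glutamate and between −12.8 and −5.32 for proline, with the far end in each case without old female 2. In the same way it moved glutamate abundance between −0.0544 and 0.269 points, C ends of glutamate between 5.37 and 14.0 points, Absent ends between 0.978 and 2.46 for glutamate and between 1.43 and 5.26 for proline, and glutamate minus proline C ends between 4.46 and 11.6. Fitted log2 abundance ran between −0.10 and −0.03 for Glu-CTC, 0.13 and 0.23 for Glu-TTC, 0.00 and 0.11 for Pro-AGG, −0.16 and −0.06 for Pro-CGG, and 0.16 and 0.22 for Pro-TGG. The log2 odds differences ran between 0.05 and 0.15 for proline minus glutamate, −0.20 and −0.12 for Glu-CTC minus Glu-TTC, −0.064 and 0.045 for Pro-AGG minus Pro-CGG, −0.005254 and 0.009350 for Pro-AGG minus Pro-TGG, −0.046 and 0.073 for Pro-CGG minus Pro-TGG, −1.26 and −0.74 for nuclear minus mitochondrial glutamate, and −0.91 and −0.43 for proline. Shares within an amino acid ran between −4.77 and −3.38 for Glu-CTC, 3.38 and 4.77 for Glu-TTC, −1.85 and −0.42 for Pro-AGG, −1.95 and −0.907 for Pro-CGG, and 1.89 and 2.76 for Pro-TGG, and the share of Glu-CTC-3 between −1.57 and 0.487. Calls ran between 0 and 8 anticodons for abundance, 0 and 38 for charging, and 0 and 52 transcripts. Among the other alternatives, DESeq2 called 6 anticodons for abundance and edgeR with mitochondrial tRNAs in the fit 16, against 3, and with C and Absent counted as uncharged edgeR called 0 transcripts, against 1, and Pro-AGG minus Pro-TGG was −0.001433, Glu-CTC minus Glu-TTC −0.05, proline minus glutamate 0.23 and nuclear minus mitochondrial glutamate −0.73 (exact permutation p = 0.0857). The median-subtracted correlation was then 0.0978. As a ratio to all other nuclear tRNAs, C ends changed by −0.198 for glutamate and −0.0597 for proline, opposite to the points. The correlation was 0.575 with the median and 0.516 with the total of the other amino acids subtracted. The cause of these changes was not tested.

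The labels do not say whether replicate numbers pair the fish. Old and young brains of the same sex and number correlated in their deviations by −0.28, −0.18, −0.17 and 0.79 for charging. For abundance these values were 0.20, 0.03, 0.09 and −0.37, in the order male 1, male 2, female 1 and female 2 as for charging. With replicate numbers as a block edgeR called 1 anticodon for abundance and 0 anticodons and 0 transcripts for charging. The exact p became 0.125, the smallest 4 pairs allow, for nuclear minus mitochondrial glutamate (−1.03), Glu-CTC (−4.11), Glu-TTC (4.11) and Pro-TGG (2.32) within their amino acid. Elsewhere 214 values of the comparisons and 283 of single anticodons or transcripts kept their direction and side of the threshold, or for counts stayed within 1.5 times. That covers the count of 8 pairs of anticodons told apart in charged share, of which only 7 were shared with all 4 ends counted. Over all alternatives 38 values of the comparisons were weaker, 15 stronger and 12 reversed, and 2 of the single ones were reversed. Besides, 16 of the single ones passed only in an alternative, without old female 2 except for Pro-TGG abundance with DESeq2 and Glu-CTC-2 minus Glu-CTC-1 charging with all ends counted. Precision was lowest for Pro-CGG, 1563 CCA plus CC reads in its smallest library, and for Pro-TGG-2, with 286 and a Wilson half-width up to 5.67 points.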

Other observations

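Glu-TTC and Pro-TGG were not alone among anticodons that begin with T. Of 14 such anticodons in amino acids with several anticodons, 4 (Glu-TTC, Pro-TGG, Ile-TAT and Lys-TTT) had a share of their amino acid's reads with all old brains above all young brains, while 0 had all old brains below. Of all 39 anticodons of such amino acids, with initiator and elongator methionine counted apart, 5 (12.8%) had all old brains above all young brains. All old brains lay below in 4 (10.3%). Among the 14 that begin with T, the old minus young differences of the mean share went in both directions. They ran from −0.460 percentage points for Gln-TTG (exact permutation p = 0.657) to 4.11 for Glu-TTC. The count over anticodons that begin with T was made after the values of Glu-TTC and Pro-TGG had been seen. The shares within an amino acid are not independent of each other, and no test was run on this count.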
